A study of Haplochromis burtoni and Eretmodus cyanostictus and Lepidiolamprologus attenuatus with 30 samples.

Results

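The middle of the Haplochromis burtoni intestine was compared with its anterior and posterior ends. Section 3 was set against the mean of sections 1 and 5 within each fish, which uses 6 of the 30 libraries of the series, namely 3 sections of 2 fish. Haplochromis burtoni, also called Astatotilapia burtoni, is an African cichlid, and the series also holds Eretmodus cyanostictus and Lepidiolamprologus attenuatus with 2 fish each. Per the labels' protocols, every intestine was cut into 5 sections of the same length, numbered from 1 (anterior) to 5 (posterior), and total RNA of each section was sequenced on its own. The labels give neither strain, age, sex nor feeding state and name no treatment. Sections were set by length, so section 3 is a relative position and not an anatomical landmark. Each library mixes all cell types of its section, so a larger share of a cell type and more RNA per cell cannot be told apart.

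In teleost fishes the intestine is a tube lined by absorptive enterocytes with interspersed goblet and enteroendocrine cells. Work in zebrafish has described anterior enterocytes that take up lipids, a more distal segment whose lysosome-rich enterocytes engulf protein from the lumen, and a last segment concerned with water and ions. The mid gut is therefore a place where regional programs meet, and expression there can lie between those of the ends or outside both. The deposited table identifies genes by number alone. Its 38425 gene IDs were looked up among 28690 RefSeq entries for H. burtoni (assembly NCSU_Asbu1) with 0 matches, so no gene is given a name or a role, and intestinal marker genes could not be looked up. The tissue label was not checked against markers for the same reason.

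The 6 libraries held between 7566210 and 9706436 counts on genes. Reads outside annotated genes made up 6.75% to 9.82% of their counts, and 20951 to 21531 genes had more than 3 counts. One library outside the comparison stood apart, section 4 of fish 2, with 16.5% of reads outside genes and the lowest depth of the series (6311892 counts). It entered the main test only through the gene filter, the scaling and the estimate of the spread. The 2 libraries of each section were not copies of each other, since chi-square over genes, divided by its degrees of freedom, was 67.6 in section 3, 32.6 in section 1 and 12.6 in section 5. The labels do not say how the fish were kept or sampled, so the tests speak for these 2 fish. The main test takes out the overall difference between the fish. Its p-values rest on how far their section differences disagree, over all 5 sections.

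Section 3 was more like the anterior end than the posterior end in both fish. Across 19886 genes, log2 CPM (counts scaled to library size) of section 3 correlated with section 1 at Pearson's r = 0.929 in fish 1 and 0.931 in fish 2, and with section 5 at r = 0.875 in fish 1 and 0.850 in fish 2. These correlations are across genes of one animal, which are not independent replicates, and are given as descriptions. A difference of at least 2-fold between section 3 and section 1 was seen at 2761 genes in fish 1 and 3728 genes in fish 2. Between section 3 and section 5 there were 4528 such genes in fish 1 and 4907 in fish 2. Gene by gene the lean was modest, with section 3 nearer to section 1 at 59.5% of genes in fish 1 and 55.5% in fish 2. The median absolute log2 difference was 0.348 to section 1 and 0.467 to section 5 in fish 1. In fish 2 it was 0.430 to section 1 and 0.494 to section 5. The most abundant genes followed the same order. By mean CPM, section 3 shared 6 of its 10 most abundant genes with section 1 and 1 with section 5. Of its 100 most abundant genes, 61 were among the top 100 of section 1 and 49 among those of section 5.

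Correlations of single libraries placed section 3 of fish 1 nearer to the posterior end than section 3 of fish 2. This was not tested, and the section 4 library of fish 2 is the one with 16.5% of reads outside genes. Section 3 of fish 1 correlated with section 4 of fish 2 (r = 0.940) about as closely as with section 3 of fish 2 (r = 0.938), and less with its section 2 (r = 0.916). Section 3 of fish 2 was closest to section 2 of fish 1 (r = 0.945), ahead of section 3 (r = 0.938) and section 1 (r = 0.929), and far from section 4 (r = 0.847). The offset was not confined to section 3. Section 2 of fish 1 was less close to section 2 of fish 2 (r = 0.926). Section 4 of fish 1 was closer to section 5 of fish 2 (r = 0.955) than to its section 4 (r = 0.914). Sections 1 and 5 of fish 1 were closest to the same section of fish 2 (r = 0.938 and 0.960). The fish differed at least 2-fold at 2665 genes in section 3 (13.4%). The count was 3514 in section 1 (17.7%), 4443 in section 2 (22.3%), 3738 in section 4 (18.8%) and 1802 in section 5 (9.06%). By this count only section 5 was more alike between the fish than section 3. Other measures gave another order. The correlation between the fish was r = 0.938 in section 1 as in section 3. Chi-square per degree of freedom was 67.6 in section 3, above sections 1 (32.6), 2 (42.1) and 5 (12.6) and below section 4 (74.9).

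Genes with a strong difference between the ends were used to place the inner sections on a scale from 0% (the level of section 1) to 100% (the level of section 5) in log2 CPM. The genes were chosen on sections 1 and 5 alone, by a difference of at least 4-fold in the same direction in both fish. For the 499 genes that were higher in section 5, section 3 stood at a median of 25.3% in fish 1 (quartiles 0 and 61.1%) and 16.4% in fish 2 (quartiles -1.52% and 44.3%). For the 448 genes that were higher in section 1, it stood at 30.9% in fish 1 (quartiles 13.2% and 57.0%) and 6.81% in fish 2 (quartiles -15.3% and 46.6%). In both sets the median mid gut level was thus nearer to that of section 1. It stood on the anterior side of the midpoint in both fish at 322 of the 499 posterior genes and at 271 of the 448 anterior genes. Only 86 and 59 of them stood on the posterior side in both fish. Fish 1 was farther toward the posterior end than fish 2 at 293 of the 499 posterior genes (58.7%) and at 334 of the 448 anterior genes (74.6%). The step to section 4 was large. There the posterior genes stood at 99.8% in fish 1 and 63.1% in fish 2, and the anterior genes at 87.1% in fish 1 and 45.3% in fish 2. The low value of section 4 in fish 2 comes from the library with 16.5% of reads outside genes, and the part of that share in the value was not tested.

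**Figure D1:**
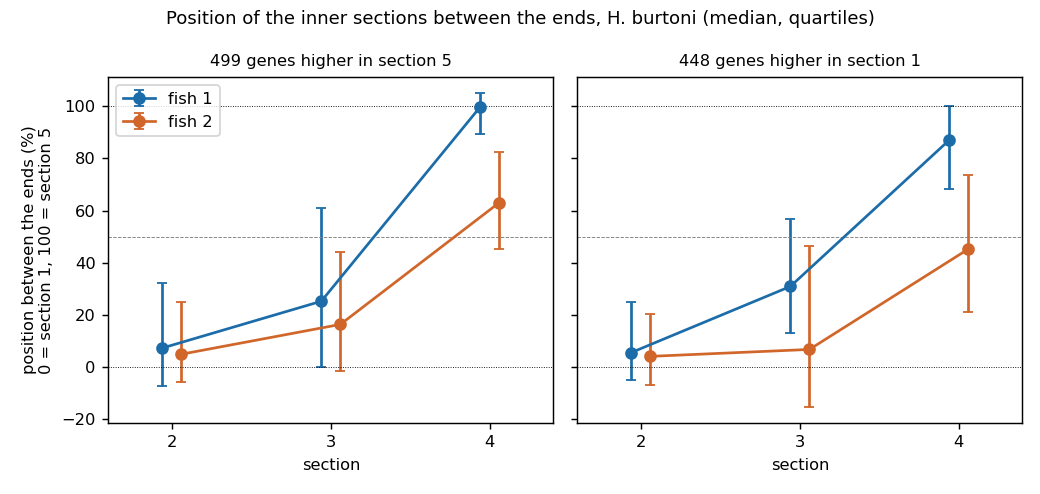
Position of sections 2, 3 and 4 between the ends of the H. burtoni intestine, in percent of the log2 CPM difference from section 1 (0) to section 5 (100), for 499 genes higher in section 5 (left) and 448 genes higher in section 1 (right). Points are medians over genes and bars are quartiles, with fish 1 in blue and fish 2 in orange. Section 3 lies at 25.3% and 16.4% on the left and at 30.9% and 6.81% on the right, and the 2 fish separate most in section 4.

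Section 3 was then tested against the mean of sections 1 and 5, taken on the log2 scale, with fish as a block. The test used the 10 H. burtoni libraries. Sections 2 and 4 are not in the contrast but entered the gene filter, the scaling and the estimate of the spread. The genes tested therefore vary with the libraries used, with 19354 for the 6 libraries of sections 1, 3 and 5 alone. Of 19886 genes, 7 were called at an adjusted p under 0.05 (0.0352%; quasi-likelihood F-test of edgeR, Benjamini-Hochberg adjustment), 5 higher (0.0251%) and 2 lower (0.0101%) in section 3. In the same fit 3133 genes (15.8%) had an unadjusted p under 0.05, 1535 of them higher and 1598 lower in section 3. The smallest adjusted p was 0.0125.

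The number of calls changed with the section 4 libraries, which are not part of the comparison, and with the test used. Without the section 4 library of fish 2, 834 genes were called (4.03%), and without that of fish 1, 837 (4.05%). With 1 of the 2 left out, the other no longer adds to the spread, so both settings remove the disagreement of the 2 fish in section 4 from the test. The part of this in the larger counts was not tested. The 6 libraries of sections 1, 3 and 5 alone gave 822 genes (4.25%), of which 53.2% were higher in section 3, and these included all 7. A fit of all 30 libraries of the series called 620 genes (2.76%), 331 higher (1.48%) and 289 lower (1.29%), among them 6 of the 7. Without a block for fish no gene passed (0, edgeR, 2245 genes at an unadjusted p under 0.05), whereas DESeq2 with the block called 907. Leaving out a section 2 library gave 13 genes (fish 1) or 12 (fish 2), a section 3 library 14 (fish 1) or 12 (fish 2), and a section 1 library 2 (fish 1) or 1 (fish 2). Leaving out a section 5 library gave 0 in edgeR for either fish, with 2940 genes (section 5 of fish 1 left out) and 2197 genes (section 5 of fish 2 left out) at an unadjusted p under 0.05. In the fit of all species, 377 genes were called without fish 1 and 83 without fish 2, the lone fish being assumed to vary like the other groups.

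Across the 19886 genes the differences of fish 1 and fish 2 had the same sign at 11716 genes (58.9%) and correlated at r = 0.469. A difference of at least 2-fold in the same direction in each fish was found at 1060 genes, 458 higher and 602 lower in section 3, while 115 genes differed at least 2-fold in opposite directions. Against the arithmetic mean of the CPM of the ends, which gives the higher end more weight, the same count was 1167, with 254 higher and 913 lower. An arithmetic mean is never below the geometric one, so this shift toward lower is fixed by the choice of mean. Both section 3 libraries lay above all 4 end libraries at 1194 genes and below all 4 at 1535 genes, together 13.7% of genes. The test called 0.0352% of genes, and nothing is read from the larger share. Scaling to plain library size moved the median difference of all genes to -0.12 on the log2 scale, against -0.00055 with TMM scaling (trimmed mean of M values).

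**Figure D2:**
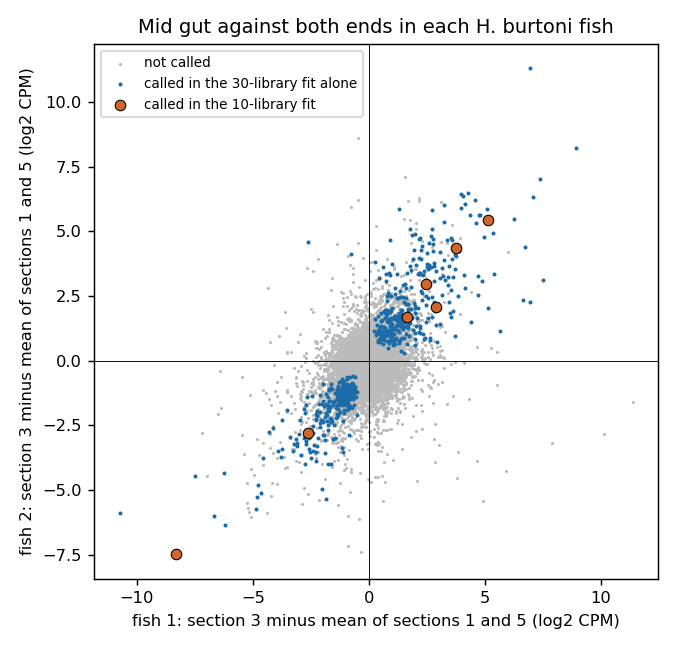
Difference between section 3 and the mean of sections 1 and 5 in log2 CPM, in fish 1 (horizontal axis) and fish 2 (vertical axis), 1 point per gene for 19886 genes. Orange points are the 7 genes called with the 10 H. burtoni libraries, blue points are genes called with all 30 libraries alone, and grey points are not called. The 7 genes lie near the diagonal, with similar differences in both fish, which the test favours.

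Of the 5 genes called higher, 2 lay above both ends in each fish, and gene ID 100709359 had the larger difference of these. It stood at 31.2 CPM in section 3 of fish 1 and 94.8 CPM in section 3 of fish 2, against 13.2 and 16.5 CPM in section 1 and 0 and 0.22 CPM in section 5 (fish 1 and 2 in each case). Both mid gut libraries were higher than all 4 end libraries. Its log2 difference from the mean of the ends was 5.37 (SE 0.41, edgeR adjusted p = 0.0125). The posterior end carried 2 counts in all, so this size depends on the prior count. On summed counts, section 3 over section 5 was 554-fold with an exact 95% interval from 153 to 4582 for counting error alone. Over section 1, section 3 was 2.37-fold higher in fish 1 and 5.75-fold higher in fish 2, a difference that did not pass the test (log2 difference 1.87, SE 0.38, edgeR adjusted p = 0.0843). Section 2 carried 35.7 and 76.3 CPM, and section 4 carried 0.243 and 1.84 CPM. This ID was thus present in sections 1 to 3 with its highest levels in sections 2 and 3, and nearly absent behind the middle.

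Gene ID 100706544 also stood above both ends in each fish, but on a posterior plateau. Section 3 held 35.7 CPM in fish 1 and 22.1 CPM in fish 2, against 5.19 and 3.15 CPM in section 1 and 25.1 and 14.4 CPM in section 5. The log2 difference from the mean of the ends was 1.68 (SE 0.16, edgeR adjusted p = 0.0188). The larger part lay on the anterior side, where section 3 was 6.89-fold higher in fish 1 and 7.01-fold higher in fish 2 (log2 difference 2.79, SE 0.22, edgeR adjusted p = 0.00195). Over section 5 the factor was 1.42 in fish 1 and 1.53 in fish 2 (edgeR adjusted p = 0.0992). Section 2 was low, at 8.53 and 4.55 CPM, and section 4 high, at 32.4 and 17.9 CPM, so the high levels began at section 3 in both fish.

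Gene ID 100702286 was lowest in the middle. It stood at 2.99 CPM in section 3 of fish 1 and 2.70 CPM in that of fish 2, against 51.5 and 42.8 CPM in section 1 and 6.67 and 8.69 CPM in section 5. The log2 difference from the mean of the ends was -2.74 (SE 0.28, edgeR adjusted p = 0.0188). Section 3 was lower than section 1 (log2 difference -4.04, SE 0.30, edgeR adjusted p = 0.00195) and lower than section 5 (log2 difference -1.45, SE 0.30, edgeR adjusted p = 0.0241). Sections 2 and 4 were close to section 3, at 4.63 and 2.86 CPM in section 2 and 4.85 and 3.51 CPM in section 4. The gene was therefore mainly one of section 1, with a small recovery at the posterior end.

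The other gene called lower, ID 100711397, had no count in section 3 of either fish and was added after its values were seen. It stood at 0 CPM in both section 3 libraries, against 32.6 and 23.0 CPM in section 1 and 11.6 and 5.17 CPM in section 5. With a floor of 3 counts per library, section 3 was at least 54.3-fold lower than the geometric mean of the ends in fish 1 and at least 32.3-fold lower in fish 2. Its edgeR adjusted p was 0.0188. Section 2 was at 0.289 and 0.212 CPM (2 counts in each library), and section 4 at 2.55 and 0.50 CPM, so the gene was present at both ends and not detectable at this depth in the middle.

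**Figure D3:**
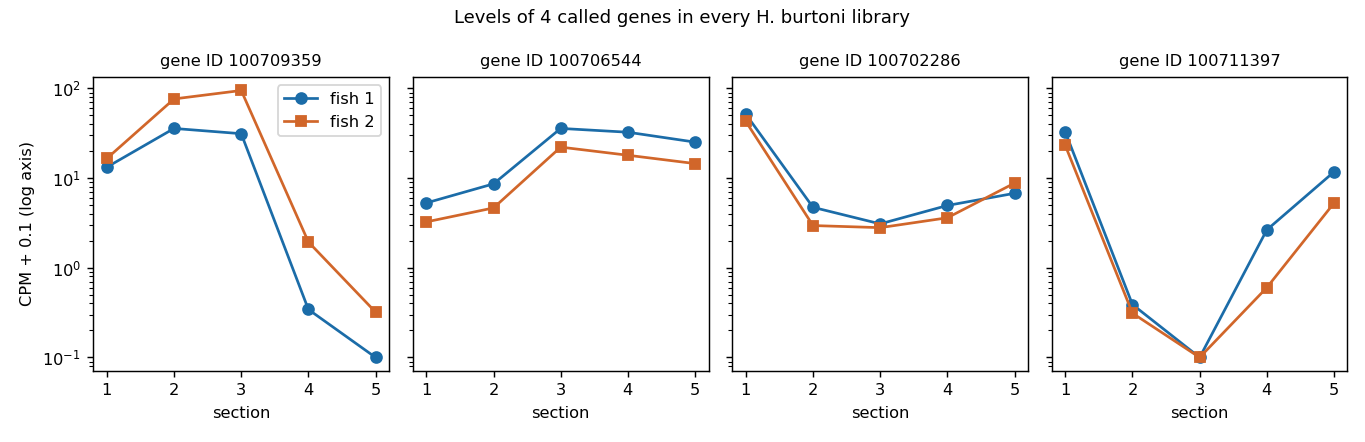
CPM plus 0.1 on a log axis of 4 called genes in sections 1 to 5 of the H. burtoni intestine, with fish 1 as blue circles and fish 2 as orange squares. The first pair of panels shows IDs that were higher in section 3 than at both ends, and the other pair IDs that were lower. For ID 100709359 the highest level is in section 2 of fish 1 (35.7 CPM) and in section 3 of fish 2 (94.8 CPM), and ID 100711397 is at 0 CPM in both section 3 libraries.

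No direction of these 4 genes was reversed over 19 alternatives of test, threshold, scaling, filter, block and libraries. ID 100709359 passed in 14 (adjusted p from 6.15e-13 to 0.134), ID 100711397 in 14 (2.10e-07 to 0.134), ID 100706544 in 10 (6.97e-07 to 0.178) and ID 100702286 in 8 (4.38e-10 to 0.622). In the 12 alternatives that leave out a library or a fish, the call was lost in 3 for ID 100709359, 3 for ID 100711397, 7 for ID 100706544 and 8 for ID 100702286. The fitted log2 differences moved less, staying between 5.02 and 6.56 for ID 100709359, 1.62 and 1.75 for ID 100706544, and -2.90 and -2.51 for ID 100702286. ID 100702286 was the one called gene that the fit of all 30 libraries did not call (edgeR adjusted p = 0.078).

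The other 3 called genes, all higher than the mean of the ends, lay between the ends or close to the higher end. One of them stood at 1091 and 1475 CPM in section 3, against 5.55 and 3.27 CPM in section 1 and 1165 and 1524 CPM in section 5. It was already at 1340 and 454 CPM in section 2, so its step lay between the first sections and the mid gut level was that of the posterior end. The second stood at 18.5 and 68.2 CPM in section 3, against 27.3 and 58.4 CPM in section 1 and 0.364 and 1.21 CPM in section 5, so its mid gut level was that of the anterior end. The third stood at 129 and 74.2 CPM in section 3, against 2.90 and 3.63 CPM in section 1 and 104 and 83.4 CPM in section 5. A difference from the mean of both ends on the log2 scale therefore also marks genes with a step away from the middle. Of the 620 genes called with all 30 libraries, 276 of the 331 higher ones lay above both ends by their mean and 55 lay between them, 46 of these 55 being higher in section 1. Of the 289 lower ones, 268 lay below both ends by their mean and 21 between. Within each fish, 212 of the 331 lay above both ends and 249 of the 289 below both. Among the 19886 genes tested in H. burtoni alone, 2052 lay above both ends in both fish and 2506 below both. The choice of the 620 genes by their difference from the mean of the ends favours levels outside both ends. The counts of called genes outside the ends are therefore a description. Section 3 was the section of the highest mean level for 200 of the 331 genes, and section 2 for 93. It was the section of the lowest mean level for 159 of the 289, and section 2 for 108. The genes were called by their section 3 levels, which favours section 3 in both counts. Any ties between sections were not counted apart.

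A stricter description asked for levels outside both ends. Section 3 was at least 2-fold above both ends in each fish at 132 genes (0.664%) and at least 2-fold below both in each fish at 140 genes (0.704%). Fish 1 alone gave 466 genes above and 474 below, and fish 2 alone 485 and 729. These genes were chosen by their values in sections 1, 3 and 5, so their levels there are a description. The 132 genes had a median of 23.6 CPM in section 3 of fish 1 and 26.7 CPM in that of fish 2, against 5.55 and 4.78 CPM in section 1 and 2.67 and 4.29 CPM in section 5. Together they took 4.37% and 6.22% of the counts of the section 3 libraries, against 0.952% and 1.09% in section 1 and 0.678% and 1.20% in section 5. The 140 genes had a median of 0.956 and 0.675 CPM in section 3, against 3.86 and 4.12 CPM in section 1 and 4.79 and 5.34 CPM in section 5, and took 0.0456% and 0.0445% of the counts in section 3.

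Sections 2 and 4 did not enter that choice, and they showed how wide the mid gut pattern was. Relative to the mean of the ends, the 132 genes stood at a median log2 difference of 1.12 in section 2 of fish 1 and 0.89 in that of fish 2. In section 4 the fish parted, with -0.09 in fish 1 and 1.99 in fish 2. The choice fixed section 3 above sections 1 and 5, which favours section 3 in a count of highest levels. That count is therefore a description. In fish 1, 105 of the 132 genes had their highest level in section 3, 27 in section 2 and none (0) in section 4. In fish 2, 95 had it in section 3, 5 in section 2 and 32 in section 4. The raised region thus reached into section 4 in fish 2 and ended before it in fish 1. The 140 genes stood at -1.11 in section 2 of fish 1 and -1.95 in that of fish 2, and at -0.48 and -1.17 in section 4, so the low region was wider on both sides in fish 2. Their lowest level lay in section 3 for 112 genes in fish 1 and 71 in fish 2, and in section 2 for 25 and 51. The choice favours section 3 here too, and any genes with equal lowest levels in sections 2 and 3 were not counted apart. The values of fish 2 in section 4 come from the library with 16.5% of reads outside genes, and the part of that share was not tested.

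**Figure D4:**
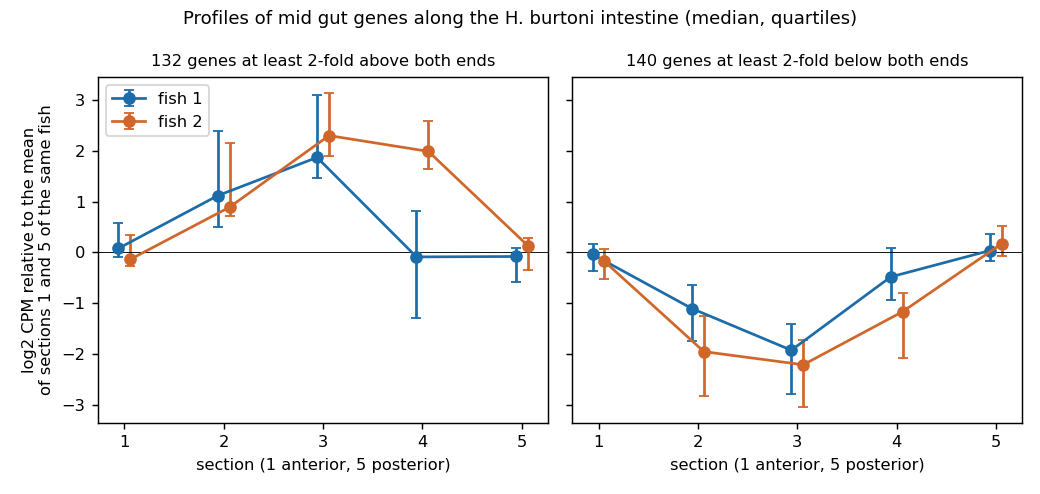
Log2 CPM relative to the mean of sections 1 and 5 of the same fish, along the 5 sections, for 132 genes at least 2-fold above both ends in each fish (left) and 140 genes at least 2-fold below both (right). Points are medians over genes and bars quartiles, with fish 1 in blue and fish 2 in orange. The genes on the left are back at the level of the ends in section 4 of fish 1 (-0.09) and still raised in section 4 of fish 2 (1.99).

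Each end was also tested on its own, in the same fit. These comparisons and the one above share the section 3 libraries. Section 3 differed from section 1 at 112 genes (0.563%, edgeR, adjusted p under 0.05), 60 higher (0.302%) and 52 lower (0.261%) in section 3. All of these changed in the same direction in both fish, which the test itself favours, so this is a description and not a replication. The median log2 difference was 2.79 for the higher and -3.36 for the lower genes. The 60 higher genes took 0.885% and 0.624% of the counts of section 3, against 0.125% and 0.0834% of those of section 1. The count was 281 without the section 4 library of fish 2 and 283 without that of fish 1. It was 28 and 26 without a section 1 library (fish 1 and fish 2), 48 without section 3 of fish 1, and 58 and 59 without a section 5 library (fish 1 and fish 2). With all species in the fit, leaving out fish 1 gave 34.

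Section 3 differed from section 5 at 2047 genes (10.3%, edgeR, adjusted p under 0.05), 821 higher (4.13%) and 1226 lower (6.17%) in section 3. Of the higher genes 819 and of the lower genes 1225 moved in the same direction in both fish, with median log2 differences of 1.79 and -1.70. The test favours genes on which the fish agree here too. The 821 higher genes took 12.7% and 21.1% of the counts of section 3, against 2.19% and 2.24% of those of section 5. The 1226 lower genes took 3.20% and 2.56% in section 3, against 17.2% and 19.8% in section 5. The count was 414 without section 3 of fish 1 and 641 without that of fish 2. It was 753 without section 5 of fish 1, and 27 without that of fish 2. With all species in the fit, it was 1228 without fish 1 and 688 without fish 2. In the fits of H. burtoni alone, the balance of directions depended on the library left out. Without a section 3 library of either fish, more calls were higher than lower. Without a section 5 library of either fish, the share of lower calls grew. Whether section 3 differs from section 5 at more genes than from section 1 was not itself tested.

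The same contrast was examined in the other species, whose libraries are separate, to see where H. burtoni differed. Of the 132 genes at least 2-fold above both ends in H. burtoni, 42 lay above both ends in both fish of L. attenuatus (31.8%, against 8.83% of all 22430 genes in the fit of all species) and 24 in both fish of E. cyanostictus (18.2%, against 7.17%). Of the 140 genes below both ends in H. burtoni, 29 lay below both in L. attenuatus (20.7%, against 12.1%) and 17 in E. cyanostictus (12.1%, against 8.88%). The median log2 difference of the 132 genes was 0.76 and 1.34 in the fish of L. attenuatus, and 0.45 and -0.05 in those of E. cyanostictus. The 140 genes had medians of -0.36 and -0.28 in L. attenuatus and of 0.28 and -0.01 in E. cyanostictus, while the medians of all genes lay between -0.02 and 0.0015. By their median, the 132 genes thus stood above the log2 mean of the ends in both fish of L. attenuatus. A gradient between the ends can also give this, and 42 of the 132 lay above both ends in both fish there. The fish of E. cyanostictus did not share a direction.

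**Figure D5:**
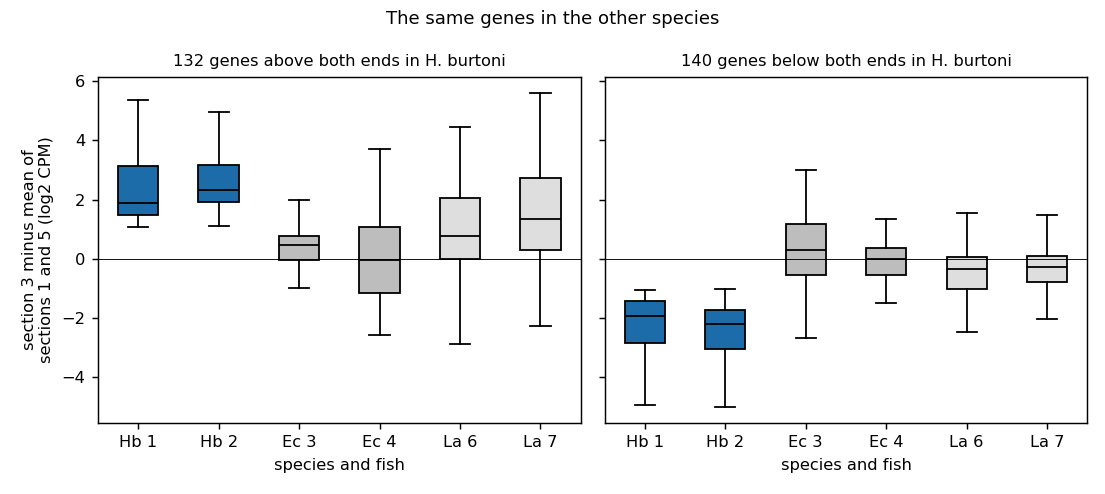
Section 3 minus the mean of sections 1 and 5 in log2 CPM, for the 132 genes (left) and 140 genes (right) chosen in H. burtoni, in each fish of H. burtoni (Hb), E. cyanostictus (Ec) and L. attenuatus (La). Boxes show quartiles and medians, whiskers reach to the last value within 1.5 box lengths, and outlying points are not drawn. The H. burtoni boxes lie on 1 side of 0 because the genes were chosen there, and the medians of L. attenuatus are 0.76 and 1.34 on the left and -0.36 and -0.28 on the right.

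The difference between species was tested directly, as the contrast in H. burtoni minus that in the other species, with fish as a block. Between H. burtoni and E. cyanostictus 89 of 22430 genes differed (0.397%, edgeR, adjusted p under 0.05), 18 with a higher value in H. burtoni (0.0802%) and 71 with a lower one (0.317%). At all 71 the contrast was negative in H. burtoni and positive in E. cyanostictus, with medians of -1.18 in H. burtoni and 0.67 in E. cyanostictus. The choice of these genes by the difference between the species favours opposite signs, so this is a description. At the 18 genes the medians were 1.88 in H. burtoni and -0.78 in E. cyanostictus. Both fish of H. burtoni lay beyond both fish of E. cyanostictus at all 89 genes, which the choice by this same difference favours. The share over all genes was not computed, and nothing is read from it. In the same fit, 12 of the 18 and 60 of the 71 were called within H. burtoni (2.76% of all genes) and 0 within E. cyanostictus. These calls rest on the same H. burtoni libraries as the difference. The fish of E. cyanostictus differed in the place of section 3 on the scale from section 1 to section 5. For 410 genes higher in section 5 its median was 20.5% in fish 3 and 65.1% in fish 4. For 274 genes higher in section 1 it was 40.3% in fish 3 and 47.5% in fish 4. The part of this in the calls was not tested. On its own, the contrast called no gene (0) in E. cyanostictus (edgeR), where 1737 genes had an unadjusted p under 0.05. Without H. burtoni fish 1 the count was 112, of which 54.5% were higher in H. burtoni, and without fish 2 it was 4. Neither the size of the count nor its direction was therefore stable to leaving out 1 fish.

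Between H. burtoni and L. attenuatus 13 genes differed (0.058%), 7 with a higher value in H. burtoni (0.0312%) and 6 with a lower one (0.0267%). At the 7 genes the medians were 1.68 (H. burtoni) and -1.45 (L. attenuatus), and at the other 6 they were -1.19 (H. burtoni) and 2.89 (L. attenuatus). The species had opposite signs at all 7 of the former but at only 2 of the latter 6. The choice of the 13 genes by this difference favours opposite signs, and no share over all genes was computed. The count was 24 without H. burtoni fish 1 and 9 without fish 2. L. attenuatus on its own had 284 genes called (1.27%), 145 higher (0.646%) and 139 lower (0.62%) in section 3. ID 100706544 was among the 13. Its section 3 stood above the mean of the ends in H. burtoni (1.64 and 1.70 on the log2 scale in fish 1 and 2) and below it in L. attenuatus (-0.68 and -2.03), a difference of 2.98 (edgeR adjusted p = 0.00256). In L. attenuatus its section 3 was at 3.35 and 1.43 CPM, against 2.71 and 3.19 CPM in section 1 and 10.8 and 11.3 CPM in section 5, so the level there was still that of the anterior end. Against E. cyanostictus its adjusted p was 0.205 (edgeR). The other 3 IDs did not differ from either species at an edgeR adjusted p under 0.05, the lowest being 0.151 for ID 100709359 against E. cyanostictus. A missing call does not show a shared pattern. In L. attenuatus ID 100709359 was at 893 and 1703 CPM in section 3, below its section 1 (3575 and 3129 CPM). There ID 100711397 was at 0.497 and 0 CPM in section 3, near section 1 (0.478 and 0 CPM). In E. cyanostictus ID 100709359 stood above both ends in fish 3 alone, and ID 100711397 below both ends in both fish.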

How the data were processed

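The authors deposited 1 table of raw counts per gene. Per the submitters' processing notes, Trimmomatic, STAR and HTSeq were used. Their settings, the genome build, the annotation and strand handling are not given in the sources used here, so overlapping, antisense and near-identical genes cannot be told apart, and reads that diverge from the reference may be lost. The 5 rows that name no gene were left out. In the 6 libraries, reads outside genes made up 6.75% to 9.82% and reads on several genes 2.67% to 3.41% of all counts.

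The deposited counts were tested in R 4.3.3 with edgeR 4.0.16 (filterByExpr, TMM scaling, robust quasi-likelihood F-test, fish as a block), with DESeq2 1.42.0 as an alternative. Contrasts were taken on the log2 scale and p-values adjusted by the Benjamini-Hochberg method over all genes tested. Standard errors are the log2 difference divided by the square root of F. Log2 CPM used a prior count of 0.5. The scripts were tested on simulated data. Intervals and the floor of 3 counts cover counting error only.

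Fish numbers of H. burtoni columns are those of the labels. For the other species the numbers in the column names (3, 4, 6 and 7) were used, since the labels number those fish differently. The sections of 1 number come from 1 fish, and the differences between the fish correlated positively over all 10 pairs of sections (r from 0.261 to 0.67). The comparison, its tests and its lists were chosen with earlier results of these data known. The genes given by ID had to be called, change the same way in both fish, lie outside both ends in each fish, reach 20 CPM on the higher side and have more than 3 counts in a library of the lower side. Of those, the 2 largest rises and 2 largest falls were to be taken, and 1 fall met the rule. Marker lists by symbol were not used because no ID could be named.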

Additional observations from a re-analysis of the deposited data

Results flagged for a closer look

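The contrast of section 3 with both ends differed between H. burtoni and E. cyanostictus at 89 genes, when the difference itself was tested with edgeR at an adjusted p under 0.05.

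It differed between H. burtoni and L. attenuatus at 13 genes by the same test.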

How the results depend on the processing

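Counts of genes called in section 3 are given against both ends, section 1 and section 5 in this order, from 7, 112 and 2047 in the main analysis. Without the replicate block they were 0, 26 and 794. At an adjusted p under 0.01 they were 0, 27 and 161. DESeq2 gave 907 and 447 for the first 2, no filter 58 and 191, the 6 libraries alone 822 and 261, and all 30 libraries 620 and 266. RLE size factors gave 7, 111 and 2039. Leaving out single libraries or fish gave 0 to 837 against both ends, 26 to 283 against section 1 and 27 to 2689 against section 5. The share of called genes outside both ends was 71.4% (7 genes), and 66.7% to 100% with libraries left out. Calling genes by their difference from the mean of the ends favours such genes, so this share is a description. The species tests gave 89 (E. cyanostictus) and 13 (L. attenuatus) genes, and 3 and 5 without the replicate block, 544 and 183 with DESeq2, 0 and 5 at an adjusted p under 0.01, and 11 and 7 with the 18 libraries of sections 1, 3 and 5. Without single H. burtoni fish they gave 4 to 112 and 9 to 24. Of the zero counts, the fit without the block had 2245 genes at an unadjusted p under 0.05, and the stricter threshold left 3133 and 2551 such genes. Genes that differed at least 2-fold in each fish numbered 1060, and 1760 with no filter. Single fish gave 2493 to 3110. The 3 alternatives that leave out the section 4 library of fish 1 or a section 2 library, and that without section 4 of fish 2, were chosen after seeing the data. The cause of these differences was not tested. This includes the smaller number of samples or fish in those that leave some out. The main analysis of H. burtoni had 4 residual degrees of freedom and the fit of all 30 libraries 12.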
